A study of Homo sapiens with 26 samples.

Results

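H1975 is a human lung adenocarcinoma line that carries activating and resistance mutations in the gene of the epidermal growth factor receptor, EGFR. All arrays whose title names H1975 were taken, 9 of the 26 arrays of the series, 5 from cells given Omomyc and 4 from cells given phosphate-buffered saline (PBS), and 17687 genes with a single symbol were tested on them. The other 17 arrays held A549 (7) and H1299 (10), lung cancer lines given the same treatments, and serve here for the estimate of spread and for 1 comparison. H1975 cells grew in RPMI1640 with glutamine and 10% fetal bovine serum, were left overnight after plating, and then received 12.8 µM Omomyc or the vehicle, PBS. Both groups share the parental line with no other agent, and PBS was the only control. The sources used here do not state how long the cells were exposed.

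MYC is a transcription factor that pairs with MAX, binds E-box DNA and drives genes of growth, ribosome production and cell division. Omomyc is a miniprotein built from the dimerization region of MYC. It pairs with MAX, with MYC and with itself and occupies the same DNA elements without an activation domain. Cancer cells answer many stresses through a few shared programmes: ATF4 turns on amino acid supply when the initiation factor eIF2 is phosphorylated, XBP1 and ATF6 turn on chaperones of the endoplasmic reticulum (ER), SREBP turns on cholesterol synthesis when sterols are scarce, and E2F factors turn on replication genes at the start of S phase.

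Values are the deposited log2 signals, so that a difference of 1 is a 2-fold change. A gene was called when limma's adjusted p (Benjamini-Hochberg over 17687 genes) was under 0.05, and "rose" and "fell" are used only of called genes. Changes are the Omomyc mean minus the PBS mean, and the value after ± is its standard error from limma. Of all genes tested 2095 were called (11.8%), 985 higher (5.57%) and 1110 lower (6.28%). Of these, 1244 changed at least 2-fold, 556 higher and 688 lower, and the median change over all genes was 0.0038. The PBS and Omomyc arrays did not overlap for 1864 of the 17687 genes. For genes named below by the size of the change or by p, lack of overlap follows in part from that choice. The labels call the arrays biological replicates and say no more about separate cultures, so the p-values measure the spread between these arrays, which may be technical.

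The arrays fell into 3 sets by the distribution of their values, which is similar within a set. The sets are called normalization runs here, a name given for convenience. No label names them, and whether they were normalized apart is not known. Run 1 held 1 PBS and 2 Omomyc arrays of H1975, run 2 held 2 and 2, and run 3 held 1 and 1. Adding the run to the fit as a block raised the number of calls from 2095 to 3400. Of the 2095 called genes 2067 had the same direction in all 3 runs. The genes were called from these same arrays, so this agreement follows in part from the selection and is no replication. For most gene groups the medians within runs 1, 2 and 3 follow the median. The range of a group's counts with each array left out in turn is given for most groups too, and there the arrays are named whose absence moved a count by over 1.5 times.

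Dim genes were classed apart, but the counts and medians of the gene lists below include dim members. The array carries 23 background probe sets, and the highest of their means over the H1975 arrays, 6.65, was used as a ceiling. Both group means of 8389 genes lay above it, and these bright genes gave 794 rises and 782 falls (18.8%). Neither group mean of 8718 genes lay above it, and these dim genes gave 103 rises and 170 falls (3.13%). The remaining 580 genes were above the ceiling in 1 group, 227 with Omomyc and 353 with PBS. They gave 88 rises and 158 falls, but the class is drawn from the same contrast, so that its share of 42.4% is not a result. For these one-sided genes the change is also given as a lower bound: the mean of the brighter group against the dimmer group with no array taken below the ceiling. Placing the ceiling at 7.36 instead gave 1408 calls among bright, 309 among one-sided and 378 among dim genes. The counts of a list made up mostly of bright genes are to be read beside the 18.8% of bright genes called.

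**Figure D1:**
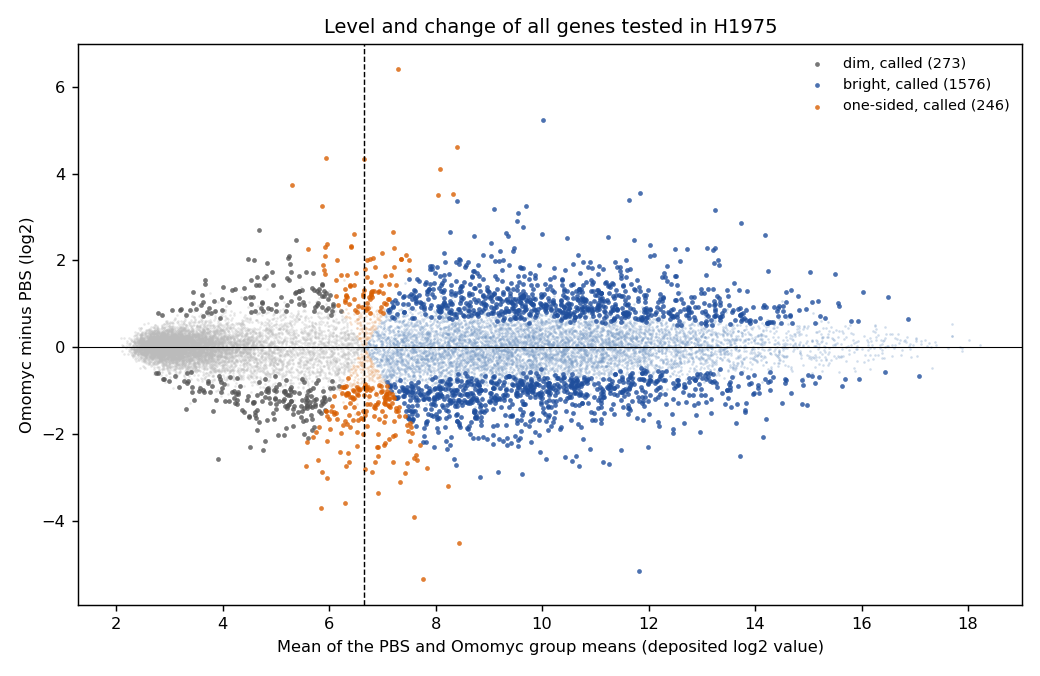
Change (Omomyc minus PBS, log2) of each of the 17687 genes against the mean of its group means (deposited log2 value), with bright, one-sided and dim genes in separate colours and called genes as larger points. Called genes are spread over the bright range in both directions, while 273 of the 8718 dim genes were called.

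Promoter sequence is shown for 6 genes from 3 of the programmes named above, whose members carry much of what follows. All 6 shown are called genes, so they do not tell how often a gene with the motif was called. Other members with the same motifs were not called, such as CHAC1 (change 0.52), CRELD2 (-0.27) and CDT1 (-0.69). The sequences are from RefSeq on GRCh38.p14. Each run of 100 bases lies upstream of the gene's start, is written 5′ to 3′ on the gene's own strand, and has the motif in capitals in whichever orientation it occurs. AARS1 (chr16:70289640-70289739, minus strand) and ASNS (chr7:97872423-97872522, minus strand) hold the ATF4-type element TGATGNAA. HSPA5 (chr9:125241351-125241450, minus strand) and XBP1 (chr22:28800570-28800669, minus strand) hold the ER stress element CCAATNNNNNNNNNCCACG. MCM3 (chr6:52284863-52284962, minus strand) and UHRF1 (chr19:4909401-4909500, plus strand) hold one of the E2F-type elements TTTCCCGC, TTTGGCGC, TTTCGCGC and TTTGCCGC.
AARS1: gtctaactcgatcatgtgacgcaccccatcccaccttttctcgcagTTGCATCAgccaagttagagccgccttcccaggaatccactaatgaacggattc
ASNS: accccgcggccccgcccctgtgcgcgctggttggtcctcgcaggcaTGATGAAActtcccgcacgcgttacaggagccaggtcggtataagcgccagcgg
HSPA5: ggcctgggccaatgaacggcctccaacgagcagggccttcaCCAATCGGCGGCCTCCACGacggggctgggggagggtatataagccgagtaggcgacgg
XBP1: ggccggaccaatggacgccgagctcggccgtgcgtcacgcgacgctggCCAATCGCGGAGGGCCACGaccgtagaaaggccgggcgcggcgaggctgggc
MCM3: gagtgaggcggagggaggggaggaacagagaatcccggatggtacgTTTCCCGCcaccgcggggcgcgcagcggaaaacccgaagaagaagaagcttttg
UHRF1: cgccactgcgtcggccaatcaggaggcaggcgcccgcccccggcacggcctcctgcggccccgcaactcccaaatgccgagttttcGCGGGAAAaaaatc

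Both strands of the 250 bases before to 50 bases after each start were searched, and a promoter with overlapping matches was counted once. The ATF4-type element was present in 5 of 14 cytosolic tRNA synthetase promoters (35.7%) and in 3.67% of all 27305 promoters. The ER stress element was present in 7 of 41 promoters of the unfolded protein response list (17.1%) and in 0.0806% of all promoters. An E2F-type element was present in 7 of 15 origin licensing promoters (46.7%) and in 3.33% of all promoters. Among bright genes with a promoter sequence the 3 kinds of element were present in 1.68%, 0.169% and 5.99%, in that order. The ATF4 list itself held the ATF4-type element in 3 of 21 promoters (14.3%). Of the synthetases 2 of 5 with the ATF4-type element and 4 of 9 without it rose. Of the unfolded protein response genes 2 of 7 with the ER stress element and 10 of 34 without it rose. Of the licensing genes 4 of 7 with an E2F-type element and 3 of 8 without it fell. These groups are small, and whether the motif made a difference was not tested. Bright genes that rose and fell held the ATF4-type element in 2.12% and 0.767%, the ER stress element in 0.756% and 0%, and an E2F-type element in 4.08% and 7.82%. The E-box CACGTG was present in 12.3% of the bright genes that rose (81 of 661), 10.6% of those that fell (69 of 652) and 10.7% of all bright genes with a promoter sequence. A match describes the letters in this window and shows no binding.

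The arrays carried the identity of an epithelial tumour line. Of 8 epithelial markers 7 were above the ceiling, including EPCAM, KRT8, KRT18 and KRT19, and CDH1 was not. The mean of these markers was 11.4 to 11.8 on PBS arrays and 11.53 to 12 on Omomyc arrays. Of the 6 markers of lung adenocarcinoma lineage NKX2-1 and MUC1 were above it, and no endothelial (0 of 6), erythroid (0 of 3) or neuroendocrine (0 of 3) marker was. Among fibroblast markers COL1A1, COL1A2 and PDGFRB (3 of 6), and among leukocyte markers CD68 (1 of 6), were above it. The mean of the 6 fibroblast markers was 5.13 to 6.17 on PBS arrays and 5.13 to 5.52 on Omomyc arrays, with none called. CD68, also a lysosomal protein, was the called leukocyte marker and was higher with Omomyc, by 1.49 ± 0.23 (adjusted p = 2.99e-05). It was chosen after its values were seen and stood at 12.96, 13.21, 12.63 and 12.62 on the 4 PBS arrays and 14.43, 14.18, 14.93, 14.04 and 14.16 on the 5 Omomyc arrays. Of the epithelial markers CLDN7 was called higher and KRT8 lower. KRT8 lost its call with any 1 array other than Omomyc 3 left out. The part of these markers in the results was not tested. In bulk RNA a change in the number of cells of a kind and a change in the RNA of each cell cannot be told apart.

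Transcripts of the MYC network moved in both directions. Of 12 measured members 4 rose and 1 fell. They gave 3 to 4 rises and 1 fall with 1 array left out. MYC itself stood at 13.93, 13.68, 13.41 and 13.69 on the 4 PBS arrays and 14.98, 14.94, 14.36, 14.26 and 14.70 on the 5 Omomyc arrays. The groups did not overlap, and MYC rose by 0.97 ± 0.20 (adjusted p = 0.00119). MAX, the shared partner, fell by 0.92 ± 0.23 (adjusted p = 0.00691). The antagonists MXD1 and MXI1, which pair with MAX and repress E-box genes, rose by 1.32 ± 0.24 (adjusted p = 0.000287) and 0.99 ± 0.20 (adjusted p = 0.00108). Among 52 measured growth targets of MYC 2 rose and 9 fell (21.2%, near the 18.8% of bright genes called). Their median was -0.122, and -0.282, 0.0328 and -0.158 in the runs. With the run as a block 6 of them rose and 12 fell. The target counts were 1 to 3 rises and 7 to 12 falls with 1 array left out (over 1.5 times apart without PBS 1, PBS 3, PBS 4, Omomyc 3 or Omomyc 4). The falls included TFRC, the transferrin receptor, and SLC19A1, the folate carrier, at 2.03 ± 0.22 (adjusted p = 2.12e-07) and 1.53 ± 0.21 (adjusted p = 6.73e-06) below PBS. HK2, the first enzyme of glycolysis, belongs to the same list and rose by 2.04 ± 0.32 (adjusted p = 4.21e-05). Of 24 measured genes described as repressed by MYC 8 rose and none fell (median 0.341, and 0.539, 0.299 and 0.271 in the runs), among them GADD45A, a growth arrest gene, by 2.52 ± 0.22 (adjusted p = 4.02e-09).

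Ribosome production changed at few genes. Of 66 ribosome biogenesis genes 2 rose and 9 fell (16.7%, beside 11.8% of all genes and 18.8% of bright genes). Their median was -0.125, and -0.338, 0.000203 and -0.324 in the runs. The counts were 2 to 3 rises and 5 to 10 falls with 1 array left out (over 1.5 times apart without PBS 2). POLR1A, the largest subunit of RNA polymerase I, fell by 1.12 ± 0.20 (adjusted p = 0.000304), and UTP14A, which processes small-subunit RNA, fell by 0.93 ± 0.19 (adjusted p = 0.00114). POLR1D, a subunit shared by polymerases I and III, rose by 1.34 ± 0.30 (adjusted p = 0.00312). None of 26 large and 20 small ribosomal protein genes was called by limma (4 and 3 at an unadjusted p under 0.05), with medians of 0.31, and -0.0139, 0.443 and 0.324 in the runs and 0.152, and -0.0201, 0.269 and 0.138 in the runs. With the run as a block 0 large and 1 small ribosomal protein genes were called. Of 38 translation factors 5 rose and 3 fell (21.1%, also near the share of bright genes). Their median was -0.00217, and -0.121, 0.129 and -0.0487 in the runs. The factor counts were 2 to 5 rises and 2 to 4 falls with 1 array left out (over 1.5 times apart without PBS 3, PBS 4, Omomyc 1 or Omomyc 3). The H1975 arrays fitted alone gave 1 rise and 3 falls. EIF2A, an initiation factor, rose by 0.93 ± 0.22 (adjusted p = 0.00498), and EIF1, which guards start codon choice, by 0.65 ± 0.17 (adjusted p = 0.00827). EIF5, which triggers GTP hydrolysis at start codons, fell by 2.05 ± 0.25 (adjusted p = 9.63e-07), and EIF4EBP2, a repressor of cap-dependent initiation, fell by 1.45 ± 0.20 (adjusted p = 7.07e-06).

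ATF4 and the integrated stress response had the highest median of the 65 gene lists described: 14 of 24 measured genes rose and 1 fell, and the median change was 1.02 against 0.0038 over all genes. The 1 fall was of a dim gene. Among bright members alone the median was 1.07, below the 1.11 of secreted stress factors and the 1.17 of CDK inhibitors. Within runs 1, 2 and 3 the median was 0.579, 1.02 and 1.13, and the counts were 10 to 14 rises and 0 to 1 falls with 1 array left out (over 1.5 times apart without PBS 2, PBS 3, Omomyc 2, Omomyc 4 or Omomyc 5). ATF4, the transcription factor at the head of this programme, stood at 12.15, 12.35, 12.36 and 12.04 on the 4 PBS arrays and 13.40, 13.32, 13.48, 13.60 and 13.09 on the 5 Omomyc arrays. All Omomyc arrays lay above all PBS arrays, and ATF4 rose by 1.15 ± 0.19 (adjusted p = 7.36e-05). DDIT3, the gene of the stress factor CHOP, stood at 6.11, 6.09, 6.04 and 6.13 on the 4 PBS arrays and 11, 10.80, 10.36, 11.08 and 10.23 on the 5 Omomyc arrays. It was below the ceiling on every PBS array and well above it on every Omomyc array, a rise of 4.61 ± 0.25 (adjusted p = 4.13e-13), or at least 16.5-fold against the ceiling. By role, 5 of 7 transcription factors and 5 of 7 kinases and feedback genes rose, and of 10 effectors 4 rose and 1 fell.

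Genes that supply amino acids moved with it in part. ASNS, asparagine synthetase, stood at 9.38, 9.89, 10.13 and 8.99 on the 4 PBS arrays and 11.21, 11.49, 11.89, 12.46 and 11.62 on the 5 Omomyc arrays. The groups did not overlap, and it rose by 2.14 ± 0.28 (adjusted p = 3.22e-06). PHGDH, the first enzyme of serine synthesis, rose by 2.63 ± 0.27 (adjusted p = 9.15e-08). It was the only 1 of the 3 measured serine synthesis genes to rise. PSPH, another of them, fell (change -0.97, with the call lost without Omomyc 2), and the median of the 3 was 0.0345. ALDH1L2, a mitochondrial folate enzyme, rose by 2.41 ± 0.24 (adjusted p = 4.99e-08). TYMS, which makes thymidylate and sits on the same folate list, fell by 1.22 ± 0.20 (adjusted p = 7.76e-05). In all 4 of 14 serine, asparagine and folate enzymes rose and 2 fell, and 4 to 5 rises and 1 to 2 falls with 1 array left out (over 1.5 times apart without Omomyc 2). Of 24 amino acid transporters 5 rose and 3 fell, with a median of -0.0543, and -0.183, 0.0336 and 0.0661 in the runs that turned to 0.0574 with median centring. Their counts were 3 to 5 rises and 0 to 4 falls with 1 array left out (over 1.5 times apart without PBS 1, PBS 2, PBS 3, PBS 4, Omomyc 2 or Omomyc 5). SLC7A11, the cystine carrier, rose by 2.01 ± 0.28 (adjusted p = 7.77e-06), SLC7A5, the carrier of large neutral amino acids, by 1.25 ± 0.17 (adjusted p = 7.78e-06), and SLC3A2, the heavy chain of both, by 1.14 ± 0.20 (adjusted p = 0.000264). PCK2, a mitochondrial enzyme of phosphoenolpyruvate synthesis, rose by 1.85 ± 0.27 (adjusted p = 1.65e-05).

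Of 16 cytosolic tRNA synthetases, which load tRNAs with amino acids, 8 rose and 1 fell (median 0.703, and 0.525, 0.701 and 0.782 in the runs), and 7 to 8 rises and 0 to 1 falls with 1 array left out (over 1.5 times apart without PBS 1, PBS 2, PBS 3, PBS 4, Omomyc 1, Omomyc 2 or Omomyc 5). AARS1, whose promoter is printed above, stood at 12.38, 12.28, 12.54 and 12.42 on the 4 PBS arrays and 13.71, 13.80, 13.63, 13.48 and 13.70 on the 5 Omomyc arrays. No Omomyc array came within the PBS range, and AARS1 rose by 1.26 ± 0.15 (adjusted p = 1.19e-06). GARS1 and SARS1, for glycine and serine, rose by 1.07 ± 0.15 (adjusted p = 1.03e-05) and 1.09 ± 0.19 (adjusted p = 0.0002). Of 15 mitochondrial synthetases none rose and 2 fell (13.3%, near the 11.8% of all genes called). Their median was -0.189, and -0.106, -0.0749 and -0.285 in the runs. With 1 array left out they gave 0 rises and 0 to 4 falls (over 1.5 times apart without PBS 1, PBS 2, PBS 3, PBS 4, Omomyc 2 or Omomyc 5).

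Secreted stress factors held the largest rise of any gene tested. IL24, a cytokine of the IL10 family, stood at 3.92, 4.11, 3.75 and 4.56 on the 4 PBS arrays and 11.05, 10.59, 10.14, 10.73 and 9.92 on the 5 Omomyc arrays. PBS cells lay far below the ceiling on every array, and the rise of 6.40 ± 0.35 (adjusted p = 4.81e-13) is at least 14.2-fold against the ceiling. GDF15, a stress hormone of the TGF-beta family, stood at 7.78, 7.72, 6.89 and 7.22 on the 4 PBS arrays and 13.07, 12.93, 12.03, 12.69 and 12.43 on the 5 Omomyc arrays. Every Omomyc array was above every PBS array, with a rise of 5.23 ± 0.40 (adjusted p = 3.04e-10). ADM, the vasodilator adrenomedullin, rose by 3.38 ± 0.31 (adjusted p = 1.06e-08), and STC2, a secreted glycoprotein, by 2.26 ± 0.24 (adjusted p = 9.36e-08). Of the 13 measured genes of this list 7 rose and 1 fell, and 5 to 7 rises and 0 to 1 falls with 1 array left out (over 1.5 times apart without PBS 1, PBS 2, PBS 3, Omomyc 1, Omomyc 2 or Omomyc 5).

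**Figure D2:**
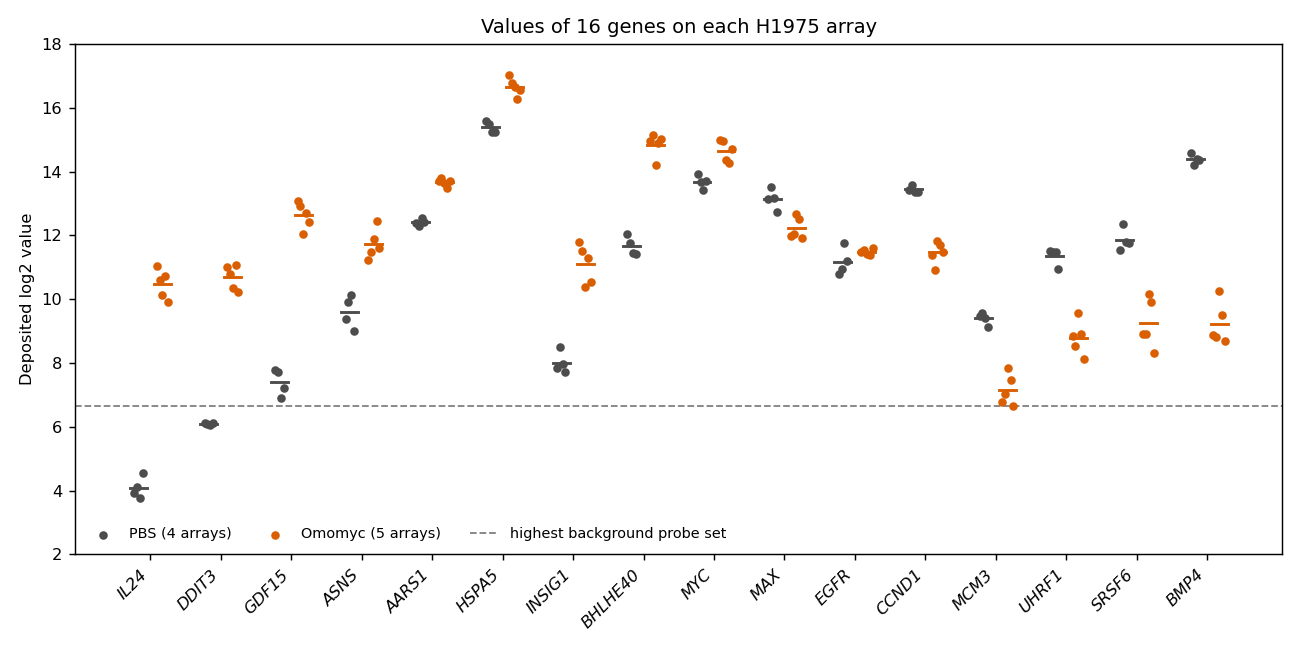
Deposited log2 value of 16 genes on each of the 4 PBS and 5 Omomyc arrays of H1975, with the highest background probe set as a dashed line at 6.65. Stress genes such as DDIT3, GDF15 and ASNS lie higher and replication and signalling genes such as MCM3 and BMP4 lower on the Omomyc arrays.

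The unfolded protein response of the ER rose at some members. Of 44 measured genes 12 rose and 2 fell, with a median of 0.374 (0.476, 0.359 and 0.259 within runs 1, 2 and 3). The counts were 6 to 14 rises and 1 to 2 falls with 1 array left out (over 1.5 times apart without PBS 2, PBS 3, PBS 4, Omomyc 4 or Omomyc 5). HSPA5, the main ER chaperone, stood at 15.58, 15.50, 15.25 and 15.25 on the 4 PBS arrays and 17.03, 16.76, 16.65, 16.29 and 16.56 on the 5 Omomyc arrays. The groups did not overlap, and it rose by 1.26 ± 0.18 (adjusted p = 1.14e-05). HERPUD1, which helps clear misfolded proteins from the ER, and DNAJB9, a co-chaperone, rose by 1.91 ± 0.21 (adjusted p = 3.21e-07) and 1.83 ± 0.23 (adjusted p = 2.3e-06). TXNDC5, a disulfide isomerase, fell by 1.09 ± 0.24 (adjusted p = 0.00259). By role, 5 of 9 sensors and factors, 4 of 14 chaperones, 1 of 9 disulfide enzymes and 2 of 12 degradation genes rose.

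ER-Golgi traffic genes, which build the vesicles that leave the ER, had 9 of 30 members rise and none fall (median 0.529, and 0.424, 0.52 and 0.455 in the runs), and 28 of the 30 changes were positive. Rises were 16 with the run as a block and 5 with the H1975 arrays alone, and the counts were 5 to 12 rises and 0 to 1 falls with 1 array left out (over 1.5 times apart without PBS 4). BET1, a fusion protein of these vesicles, rose by 1.25 ± 0.20 (adjusted p = 6.06e-05), and SEC24B and SEC23B, coat subunits, rose by 1.10 ± 0.21 (adjusted p = 0.000541) and 0.81 ± 0.18 (adjusted p = 0.00222). Of 23 cytosolic heat shock chaperones none rose and 5 fell (21.7%, near the 18.8% of bright genes called). Their median was -0.359, and -0.418, -0.225 and -0.385 in the runs. With 1 array left out they gave 0 rises and 3 to 6 falls (over 1.5 times apart without PBS 2 or PBS 3). The falls were 3 with median centring or the H1975 arrays alone and 8 after quantile normalization. DNAJA1, a co-chaperone of HSP70, stood at 12.70, 13.17, 12.52 and 12.72 on the 4 PBS arrays and 11.35, 10.90, 11.86, 11.11 and 11.01 on the 5 Omomyc arrays. All Omomyc values were below all PBS values, and DNAJA1 fell by 1.53 ± 0.24 (adjusted p = 3.91e-05). HSPA2 and HSPA1A, HSP70 proteins, fell by 2.17 ± 0.36 (adjusted p = 8.98e-05) and 1.28 ± 0.28 (adjusted p = 0.00234). Of 37 proteasome genes 1 fell, the activator subunit PSME3, by 1.44 ± 0.20 (adjusted p = 1.17e-05). After quantile normalization 5 proteasome genes fell, and the counts were 0 rises and 1 to 4 falls with 1 array left out (over 1.5 times apart without PBS 4, Omomyc 3 or Omomyc 4).

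Sterol genes were called higher and enzymes of fatty acid synthesis mostly lower, in both for a minority of the members. Of 25 genes of cholesterol synthesis and SREBP control 9 rose and none fell (median 0.503, and 0.331, 0.61 and 0.561 in the runs), and 7 to 9 rises and 0 falls with 1 array left out. INSIG1, a sterol sensor that retains SREBP in the ER, stood at 7.83, 8.51, 7.95 and 7.71 on the 4 PBS arrays and 11.78, 11.51, 10.38, 11.30 and 10.54 on the 5 Omomyc arrays. The groups were separate on all arrays, and INSIG1 rose by 3.10 ± 0.29 (adjusted p = 1.8e-08). NPC1, which exports cholesterol from lysosomes, rose by 2.27 ± 0.20 (adjusted p = 6.17e-09), and MSMO1, a demethylating enzyme of sterol synthesis, by 1.74 ± 0.19 (adjusted p = 1.56e-07). Of 17 fatty acid synthesis genes 1 rose and 5 fell (median -0.196, and 0.114, -0.223 and -0.00316 in the runs), and 0 to 1 rises and 3 to 6 falls with 1 array left out (over 1.5 times apart without PBS 1, PBS 2 or Omomyc 5). ACACA, the committed step of fatty acid synthesis, stood at 12.14, 12.19, 12.61 and 12.32 on the 4 PBS arrays and 10.94, 11.03, 11.10, 10.81 and 10.72 on the 5 Omomyc arrays. It was lower on every Omomyc array and fell by 1.39 ± 0.17 (adjusted p = 1.1e-06). ELOVL6, which lengthens fatty acids, fell by 1.26 ± 0.21 (adjusted p = 0.000103).

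Genes of DNA replication fell in part, and none of the licensing and fork genes rose. Of 17 origin licensing and MCM genes, which load the replicative helicase, none rose and 9 fell, and the median of -0.795 was the lowest of the 65 lists. Run by run the licensing median was -0.965, then -0.826, then -1.25, and the counts were 0 to 1 rises and 7 to 10 falls with 1 array left out. MCM3, a helicase subunit, stood at 9.47, 9.57, 9.41 and 9.13 on the 4 PBS arrays and 6.78, 7.03, 7.83, 7.47 and 6.66 on the 5 Omomyc arrays. The lowest PBS array was above the highest Omomyc array, and MCM3 fell by 2.24 ± 0.24 (adjusted p = 2.08e-07). MCM4, another subunit, fell by 1.65 ± 0.28 (adjusted p = 0.000115). Of 48 replication fork and S phase genes none rose and 13 fell (median -0.429, and -0.635, -0.411 and -0.832 in the runs), and 0 rises and 10 to 15 falls with 1 array left out. Among the 13 falls 7 were from the 14 firing and fork genes (median -1.22, and -1.27, -0.939 and -1.18 in the runs). PCNA, the sliding clamp of the polymerases, stood at 11.84, 11.55, 11.47 and 11.75 on the 4 PBS arrays and 10.04, 9.36, 10.34, 10.35 and 9.04 on the 5 Omomyc arrays. It was lower on all Omomyc arrays and fell by 1.83 ± 0.26 (adjusted p = 1.2e-05). EXO1, a repair nuclease, fell by 2.17 ± 0.31 (adjusted p = 1.55e-05), and CLSPN, a checkpoint adaptor whose Omomyc mean was under the ceiling, fell by 2.67 ± 0.41 (adjusted p = 4.14e-05), at least 3.94-fold against the ceiling.

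Chromatin maintenance genes, which copy DNA methylation and histone marks after replication, had none of 16 rise and 8 fall (median -0.755, and -0.872, -0.541 and -0.97 in the runs), and 5 fell with the H1975 arrays alone. Their counts were 0 rises and 5 to 9 falls with 1 array left out (over 1.5 times apart without PBS 1, PBS 2 or Omomyc 5). UHRF1, which brings the maintenance methyltransferase to new DNA, stood at 11.51, 11.48, 11.47 and 10.95 on the 4 PBS arrays and 8.83, 8.53, 9.56, 8.92 and 8.11 on the 5 Omomyc arrays. PBS and Omomyc ranges were apart, and UHRF1 fell by 2.57 ± 0.25 (adjusted p = 3.36e-08). HELLS, a chromatin remodeller, and LMNB1, a nuclear lamin, fell by 2.34 ± 0.37 (adjusted p = 5.75e-05) and 1.49 ± 0.24 (adjusted p = 8.13e-05). Of 24 nucleotide synthesis enzymes 8 fell and none rose (median -0.0853, and -0.354, 0.0322 and -0.218 in the runs), among them TK1, thymidine kinase, by 1.59 ± 0.32 (adjusted p = 0.00087) and CTPS1, the CTP synthase, by 1.38 ± 0.27 (adjusted p = 0.000798). Replication-dependent histones (48 measured) gave 1 rise and 1 fall, and their median of -0.111 was -1.31, 0.67 and -0.354 within the runs. The histone counts were 1 to 4 rises and 0 to 3 falls with 1 array left out (over 1.5 times apart without PBS 1, PBS 2, PBS 3, Omomyc 1, Omomyc 2, Omomyc 3 or Omomyc 5).

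Of 23 G1 cyclin and E2F genes 2 rose and 8 fell (median -0.446, and -0.193, -0.328 and -0.849 in the runs), and 0 to 2 rises and 8 falls with 1 array left out (over 1.5 times apart without PBS 1, PBS 4 or Omomyc 4). CCND1, cyclin D1 of the G1 phase, stood at 13.44, 13.58, 13.36 and 13.37 on the 4 PBS arrays and 11.38, 10.92, 11.84, 11.71 and 11.49 on the 5 Omomyc arrays. It was lower on every Omomyc array and fell by 1.97 ± 0.20 (adjusted p = 4.15e-08). CCNE2, cyclin E2, fell by 2.86 ± 0.39 (adjusted p = 6.48e-06), at least 1.56-fold against the ceiling, and SKP2, which marks CDK inhibitors for destruction, fell by 1.62 ± 0.23 (adjusted p = 1.14e-05). Of 6 CDK inhibitors 3 rose and none fell (median 0.828, and 0.897, 0.663 and 0.36 in the runs), and 2 to 3 rises and 0 falls with 1 array left out. CDKN1A, which encodes p21, stood at 9.24, 9.35, 8.42 and 8.35 on the 4 PBS arrays and 10.66, 10.19, 10.33, 10.67 and 10.53 on the 5 Omomyc arrays. The groups did not overlap, and it rose by 1.63 ± 0.30 (adjusted p = 0.000373). CDKN1B, which encodes p27, rose by 1.17 ± 0.24 (adjusted p = 0.00137). G2-M and mitosis genes gave 3 rises and 1 fall among 58 (median 0.0203, and -0.00259, 0.0895 and -0.09 in the runs), below the share over all genes, with 8 rises and 3 falls under the run block and 10 rises and 2 falls with arrays centred on their medians. The mitosis counts were 1 to 2 rises and 1 fall with 1 array left out (over 1.5 times apart without PBS 3 or PBS 4). WEE1, a kinase that holds cells before mitosis, rose by 1.22 ± 0.29 (adjusted p = 0.00405).

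The p53 target list, which shares GDF15, GADD45A and CDKN1A with lists above, had 4 of 27 genes rise and 2 fall (22.2%). This lies near the 18.8% of bright genes called, beside 11.8% over all genes. With the run as a block 9 rose and 4 fell. The p53 list gave 4 to 5 rises and 2 to 3 falls with 1 array left out. TP53I3, an oxidoreductase, fell by 1.82 ± 0.25 (adjusted p = 7.78e-06), and TIGAR, a regulator of glycolysis, fell by 1.99 ± 0.29 (adjusted p = 1.47e-05), at least 2.39-fold against the ceiling. Of 17 BCL2 family genes 2 rose and 1 fell (17.6%, also near the share of bright genes). Their counts were 2 rises and 0 to 1 falls with 1 array left out (over 1.5 times apart without PBS 1, PBS 2, Omomyc 2 or Omomyc 4). PMAIP1, which encodes the death-promoting protein NOXA, rose by 1.28 ± 0.29 (adjusted p = 0.00257). TNFSF10, the death ligand TRAIL, stood at 12.14, 12.35, 11.97 and 11.78 on the 4 PBS arrays and 9.14, 8.81, 10.38, 9.44 and 8.89 on the 5 Omomyc arrays. It was lower on all Omomyc arrays and fell by 2.73 ± 0.30 (adjusted p = 2.07e-07).

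**Figure D3:**
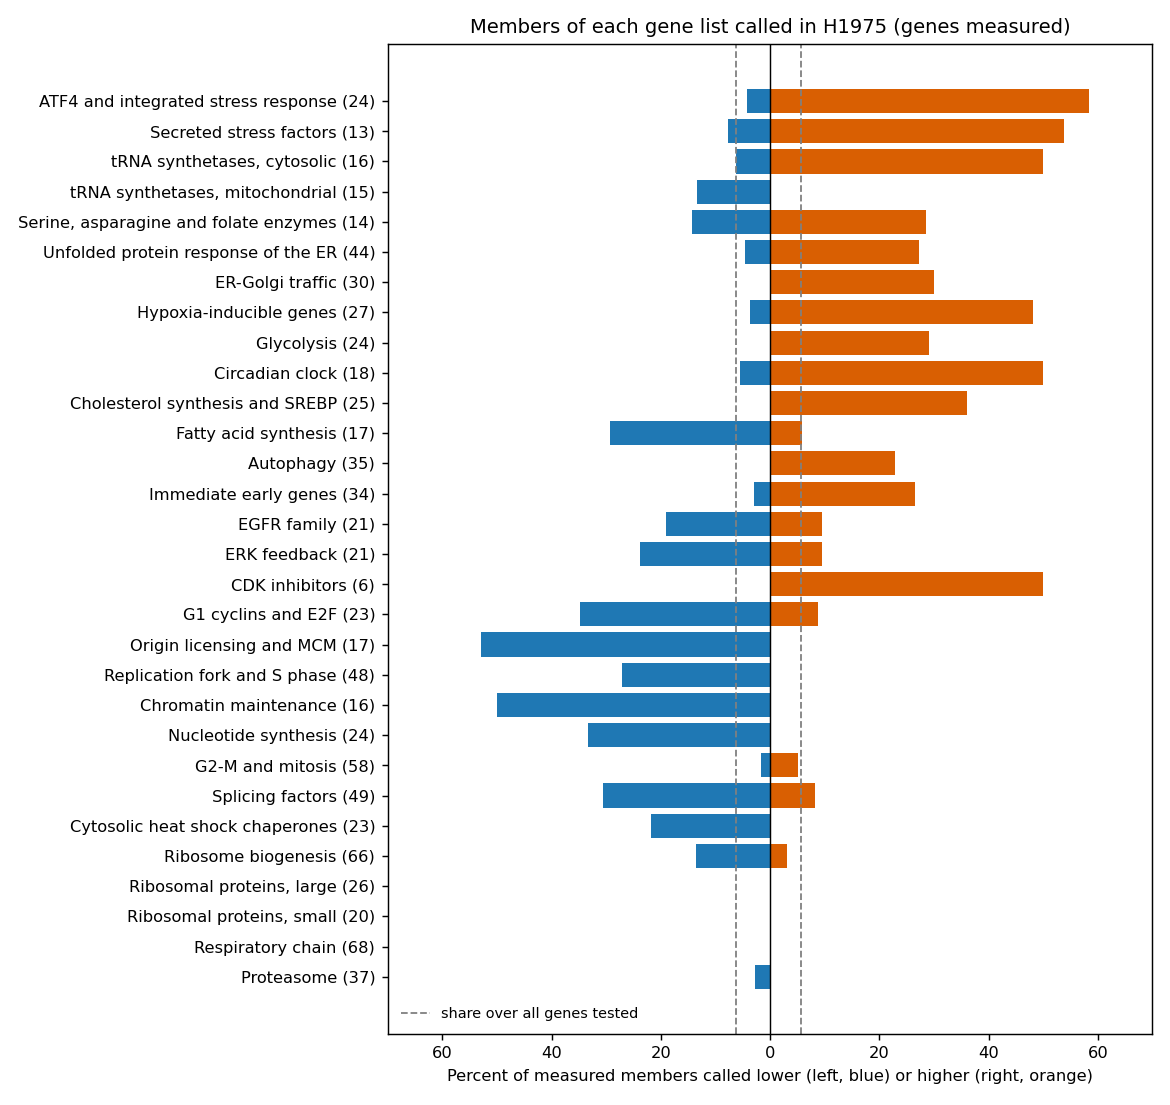
Percent of the measured members of each gene list that rose (right) or fell (left) in H1975, with dashed lines at the shares over all genes tested (5.57% and 6.28%). The ATF4 list (14 of 24 genes) and the secreted stress factors (7 of 13) extend furthest to the right and the licensing (9 of 17) and chromatin maintenance (8 of 16) lists furthest to the left.

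Splicing factor transcripts fell more often than they rose. Of 49 measured genes 15 fell and 4 rose (median -0.364, and -0.492, -0.152 and -0.467 in the runs), and 8 fell and 2 rose with the H1975 arrays fitted alone. Their counts were 1 to 5 rises and 9 to 18 falls with 1 array left out (over 1.5 times apart without PBS 1, PBS 4, Omomyc 1, Omomyc 2 or Omomyc 4). SRSF6 and SRSF1, serine- and arginine-rich proteins that choose splice sites, both fell. SRSF6 stood at 11.54, 12.37, 11.80 and 11.75 on the 4 PBS arrays and 8.90, 8.91, 10.16, 9.90 and 8.32 on the 5 Omomyc arrays. All Omomyc arrays lay below all PBS arrays, a fall of 2.62 ± 0.32 (adjusted p = 1.41e-06). SRSF1 and HNRNPM, a ribonucleoprotein of the same process, fell by 1.66 ± 0.22 (adjusted p = 3.38e-06) and 1.31 ± 0.19 (adjusted p = 1.52e-05). SNRPA1, a U2 snRNP protein, rose by 0.87 ± 0.20 (adjusted p = 0.0033).

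Genes of glucose use and low oxygen rose in part. Of 27 hypoxia-inducible genes 13 rose and 1 fell (median 0.603, and 0.5, 0.785 and 0.61 in the runs), and 7 to 13 rises and 0 to 2 falls with 1 array left out (over 1.5 times apart without PBS 3, PBS 4 or Omomyc 3), and of 24 glycolysis genes 7 rose and none fell (median 0.229, and 0.0595, 0.386 and 0.152 in the runs), and 5 to 6 rises and 0 to 1 falls with 1 array left out. SLC2A3, the glucose transporter GLUT3, stood at 12.34, 11.94, 11.70 and 11.81 on the 4 PBS arrays and 14.36, 14.46, 13.64, 14.29 and 14.39 on the 5 Omomyc arrays. No overlap remained between the groups, and it rose by 2.28 ± 0.21 (adjusted p = 1.38e-08). ALDOC, an aldolase, rose by 1.59 ± 0.27 (adjusted p = 0.000101), and NDRG1, a stress- and hypoxia-induced gene, by 2.01 ± 0.28 (adjusted p = 7.46e-06). None of 68 respiratory chain genes was called by limma (5 at an unadjusted p under 0.05, median 0.0131, and -0.408, 0.386 and -0.0538 in the runs), and 1 rose and 2 fell with the run as a block.

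Of 18 circadian clock genes 9 rose and 1 fell (median 0.584, and 0.882, 0.486 and 0.228 in the runs), and 7 to 9 rises and 1 fall with 1 array left out. BHLHE40, a repressor also on the hypoxia list, stood at 12.04, 11.75, 11.45 and 11.43 on the 4 PBS arrays and 14.95, 15.13, 14.20, 14.89 and 15.01 on the 5 Omomyc arrays. The groups lay apart, and it rose by 3.17 ± 0.31 (adjusted p = 2.5e-08). NR1D1, the repressor REV-ERB alpha, rose by 2.56 ± 0.29 (adjusted p = 4.97e-07), and NFIL3, a bZIP repressor, rose by 1.5 ± 0.23 (adjusted p = 4.5e-05). BMAL1, the activator of the clock, fell by 1.25 ± 0.26 (adjusted p = 0.00134).

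In the growth factor pathways the receptor itself did not pass the test. EGFR stood at 10.78, 10.95, 11.77 and 11.19 on the 4 PBS arrays and 11.48, 11.55, 11.42, 11.39 and 11.60 on the 5 Omomyc arrays. The ranges overlapped, and the difference was 0.32 ± 0.20 (adjusted p = 0.406). Of 21 EGFR family genes (receptors, ligands and their inhibitors) 2 rose and 4 fell, and 1 to 2 rises and 3 to 4 falls with 1 array left out (over 1.5 times apart without PBS 2, PBS 3, PBS 4, Omomyc 1 or Omomyc 3). NRG1, a ligand of ERBB3 and ERBB4, stood at 11.76, 11.44, 12.11 and 11.65 on the 4 PBS arrays and 9.87, 10.02, 10.43, 10.71 and 10.10 on the 5 Omomyc arrays. It was lower on all Omomyc arrays and fell by 1.52 ± 0.22 (adjusted p = 1.71e-05). LRIG1 and LRIG3, membrane inhibitors of these receptors, fell by 0.85 ± 0.21 (adjusted p = 0.00749) and 1.18 ± 0.27 (adjusted p = 0.00384). CBLB, a ubiquitin ligase that takes receptors down, rose by 1.11 ± 0.26 (adjusted p = 0.00375).

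Downstream of receptors, the ERK feedback list gave 2 rises and 5 falls among 21 genes, and 8 falls with the run as a block. The feedback counts were 1 to 3 rises and 2 to 6 falls with 1 array left out (over 1.5 times apart without PBS 1, PBS 2, PBS 3, PBS 4, Omomyc 1, Omomyc 2 or Omomyc 4). EPHA2, a receptor of ephrins, fell by 1.98 ± 0.27 (adjusted p = 6.48e-06), at least 3.29-fold against the ceiling, while IER3, an early survival gene, rose by 1.68 ± 0.24 (adjusted p = 1.2e-05). Immediate early genes, which respond first to growth factors and stress, had 9 of 34 rise and 1 fall (median 0.621, and 0.553, 0.4 and 0.657 in the runs). None of the 11 AP-1 and EGR genes, the core of the list, was called by limma (3 at an unadjusted p under 0.05, median -0.403, and -0.447, -0.414 and 0.0111 in the runs), and the other 23 genes had a median of 1.25, and 1.13, 1.18 and 1.39 in the runs. With the run as a block 14 rose, and with median centring 15. PIM1, a survival kinase, stood at 9.59, 10.25, 10.15 and 9.75 on the 4 PBS arrays and 13.77, 13.89, 12.60, 13.56 and 12.82 on the 5 Omomyc arrays. PBS and Omomyc values were apart, and PIM1 rose by 3.39 ± 0.32 (adjusted p = 2.1e-08). NR4A1, an orphan nuclear receptor, rose by 4.34 ± 0.54 (adjusted p = 1.83e-06), at least 4.51-fold against the ceiling, and SIK1, a salt-inducible kinase, by 3.50 ± 0.31 (adjusted p = 5.95e-09), at least 8.39-fold. DUSP1, which removes phosphate from MAP kinases, rose by 3.56 ± 0.48 (adjusted p = 6.85e-06). KLF10, an early zinc finger factor, fell by 1.68 ± 0.30 (adjusted p = 0.000225).

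BMP4, a ligand of the bone morphogenetic protein receptors, had the largest fall among bright genes. It stood at 14.58, 14.22, 14.40 and 14.35 on the 4 PBS arrays and 8.89, 8.82, 10.26, 9.51 and 8.70 on the 5 Omomyc arrays. Every PBS array was far above every Omomyc array, and BMP4 fell by 5.15 ± 0.29 (adjusted p = 4.81e-13). TGFBR2, a TGF-beta receptor, fell by 1.52 ± 0.18 (adjusted p = 6.67e-07), and SMAD6, an inhibitor of BMP signals, by 1.35 ± 0.25 (adjusted p = 0.000327), at least 2.02-fold against the ceiling. ID2, which blocks differentiation factors, rose by 1.87 ± 0.37 (adjusted p = 0.000756). Of the 48 genes of the BMP and TGF-beta list 7 rose and 6 fell, and with the H1975 arrays alone 4 rose and 6 fell. The BMP and TGF-beta counts were 5 to 7 rises and 6 to 7 falls with 1 array left out. Of 12 Hippo genes 3 rose and 2 fell, while none of 10 WNT and 12 Notch genes was called by limma (1 and 1 at an unadjusted p under 0.05). The WNT, Notch and Hippo list gave 3 to 4 rises and 0 to 2 falls with 1 array left out (over 1.5 times apart without PBS 1, PBS 2, PBS 3, Omomyc 1, Omomyc 2, Omomyc 3, Omomyc 4 or Omomyc 5). ANKRD1 and CCN1, targets of YAP, rose by 2.48 ± 0.31 (adjusted p = 1.83e-06) and 1.61 ± 0.28 (adjusted p = 0.000198).

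Among inflammatory genes directions were mixed. Of 30 NF-kB genes 6 rose and 2 fell, 10 rose with median centring, and the counts were 5 to 7 rises and 2 to 3 falls with 1 array left out. TNFAIP3, the inhibitor A20, rose by 1.96 ± 0.28 (adjusted p = 1.53e-05). CCL2, which attracts monocytes, stood at 10.28, 10.55, 10.71 and 10.59 on the 4 PBS arrays and 7.83, 7.57, 9.28, 9.03 and 7.89 on the 5 Omomyc arrays. All Omomyc arrays were below all PBS arrays, and CCL2 fell by 2.21 ± 0.29 (adjusted p = 3.12e-06). Of 45 interferon-stimulated genes 9 rose and 3 fell, 11 rose and 8 fell with the run as a block, and the counts were 8 to 11 rises and 2 to 5 falls with 1 array left out (over 1.5 times apart without Omomyc 4). RSAD2, an antiviral enzyme, rose by 2.34 ± 0.21 (adjusted p = 8.88e-09), at least 1.91-fold against the ceiling. HLA-DRA, a chain of MHC class II, fell by 1.53 ± 0.25 (adjusted p = 6.63e-05).

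Redox and iron genes did not move as one. Of 25 NRF2 targets and aldo-keto reductases 5 rose and 7 fell (median -0.438, and -0.533, -0.115 and -0.605 in the runs), and the counts were 4 to 6 rises and 6 to 7 falls with 1 array left out, and 4 of the remaining genes fell when dim genes were left out of the fit. AKR1C3, a reductase of steroids and aldehydes, stood at 13.46, 13.34, 13.10 and 12.64 on the 4 PBS arrays and 10.73, 10.47, 11.36, 10.94 and 10.69 on the 5 Omomyc arrays. It was lower on every Omomyc array and fell by 2.30 ± 0.22 (adjusted p = 2.01e-08). NQO1, a quinone reductase, fell by 0.84 ± 0.19 (adjusted p = 0.00338), while FTL, the ferritin light chain, rose by 0.96 ± 0.23 (adjusted p = 0.00552) and OSGIN1 by 1.21 ± 0.30 (adjusted p = 0.00647). LTF, the iron-binding protein lactoferrin, rose by 4.36 ± 0.32 (adjusted p = 2.08e-10), at least 2.77-fold against the ceiling. Of 35 autophagy genes 8 rose and none fell (22.9%, near the 18.8% of bright genes called), and 4 rose with the H1975 arrays alone. The autophagy counts were 5 to 8 rises and 0 to 1 falls with 1 array left out (over 1.5 times apart without PBS 1 or PBS 4). WIPI1, which marks forming autophagosomes, rose by 1.44 ± 0.25 (adjusted p = 0.000199). CTSL, the lysosomal protease cathepsin L, rose by 2.58 ± 0.20 (adjusted p = 5.78e-10).

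Epithelial and mesenchymal genes changed singly. CLDN7, a tight junction claudin, stood at 7.93, 7.94, 8.08 and 8.43 on the 4 PBS arrays and 10.13, 10.43, 10.39, 10.38 and 10.24 on the 5 Omomyc arrays. The groups did not overlap, and it rose by 2.21 ± 0.24 (adjusted p = 1.59e-07). SNAI2, the repressor of epithelial genes known as Slug, stood at 12.77, 12.33, 12.07 and 12.05 on the 4 PBS arrays and 15.59, 15.65, 14.18, 15.04 and 15.34 on the 5 Omomyc arrays. It too was higher on every Omomyc array and rose by 2.85 ± 0.32 (adjusted p = 3.26e-07). TAGLN, an actin-binding protein, rose by 1.96 ± 0.37 (adjusted p = 0.000525), while CDH11, a mesenchymal cadherin, and S100A4 fell by 1.80 ± 0.29 (adjusted p = 8.3e-05) and 2.23 ± 0.44 (adjusted p = 0.000835). Of 26 epithelial genes 2 rose and 2 fell (15.4%, beside 11.8% of all genes and 18.8% of bright genes). With 1 array left out they gave 2 rises and 0 to 2 falls (over 1.5 times apart without PBS 1, PBS 2, PBS 3, PBS 4, Omomyc 1, Omomyc 2, Omomyc 4 or Omomyc 5). Median centring or the H1975 arrays alone gave 0 falls. Of 18 mesenchymal genes 4 rose and 2 fell, and 4 rises and 2 falls with 1 array left out. ITGB8, an integrin chain, fell by 3.36 ± 0.34 (adjusted p = 5.15e-08), at least 3.84-fold against the ceiling. SERPINB4 rose by 3.54 ± 0.24 (adjusted p = 2.62e-11), at least 9.51-fold against the ceiling, but its sequence is nearly that of SERPINB3, and the probe sets may not tell them apart.

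Among the largest changes outside these lists, FNIP2, a partner of folliculin in nutrient sensing, rose by 3.19 ± 0.31 (adjusted p = 2.65e-08), and PPP1R3B, which brings a phosphatase to glycogen, by 3.24 ± 0.31 (adjusted p = 2.65e-08). CAVIN2, a coat protein of caveolae, fell by 2.99 ± 0.23 (adjusted p = 3.04e-10), CD14, a co-receptor for bacterial lipids, by 2.91 ± 0.33 (adjusted p = 4.27e-07), and KITLG, the ligand of KIT, by 2.41 ± 0.30 (adjusted p = 1.63e-06). Among one-sided genes EPOR, the erythropoietin receptor, rose by 4.11 ± 0.25 (adjusted p = 2.39e-12), at least 11.2-fold against the ceiling. SLITRK6, a neuronal membrane protein, stood at 10.30, 10.33, 10.89 and 10.20 on the 4 PBS arrays and 4.61, 4.35, 5.76, 5.34 and 5.38 on the 5 Omomyc arrays. It fell to below the ceiling on every Omomyc array, by 5.34 ± 0.27 (adjusted p = 1.49e-13), or at least 13.7-fold. DIO2, which activates thyroid hormone, fell by 4.50 ± 0.27 (adjusted p = 2.39e-12), at least 16.3-fold.

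**Figure D4:**
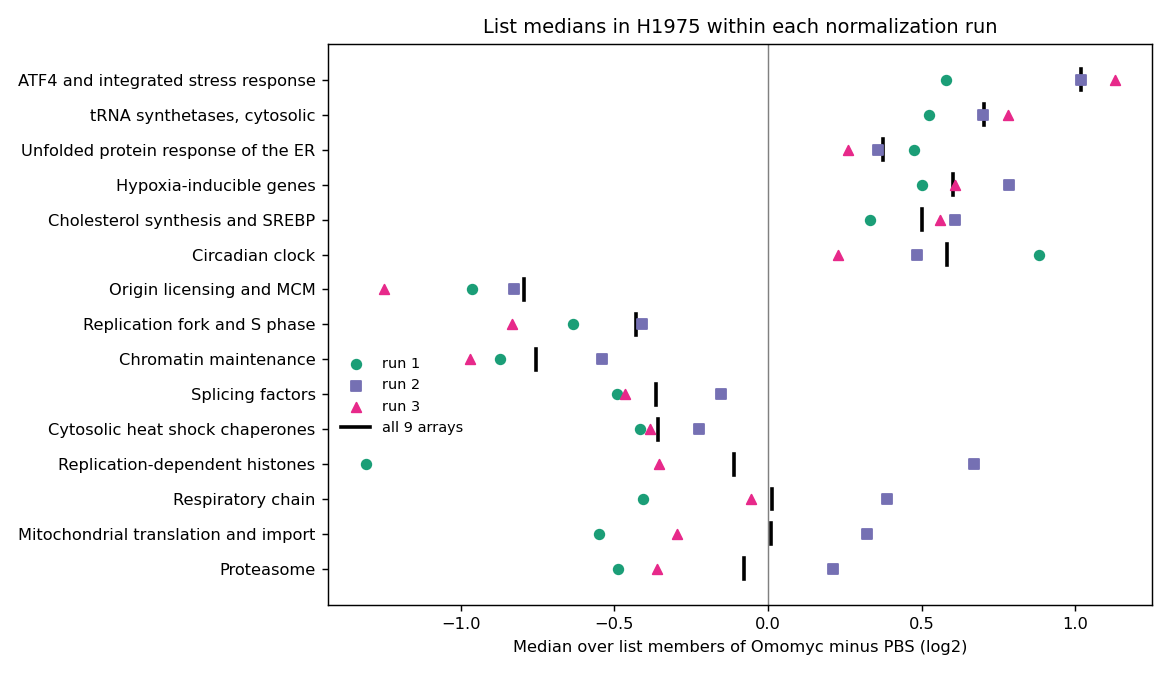
Median change of gene lists in H1975 (Omomyc minus PBS, log2) within each of the 3 sets of arrays called normalization runs here, with a bar for all 9 arrays. The ATF4 list lies at 0.579, 1.02 and 1.13 and the licensing list at -0.965, -0.826 and -1.25, while the histone list lies on both sides of 0.

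Dim genes gave few calls. All 349 olfactory receptor genes, which are read in the nose and serve as a check of noise, were dim, and none was called by limma (13 at an unadjusted p under 0.05). Fold changes of dim genes are not given, because both group means lie under the ceiling. Dim genes are nevertheless part of the list counts. They made up 1 of 3 CDK inhibitor rises, 2 of 8 G1 cyclin and E2F falls and 3 of 7 NRF2 falls. They also made up 2 of 4 aldo-keto reductase falls and the only fall of the ATF4 and of the G2-M list. Among bright members alone the median was 1.17 for CDK inhibitors and 1.01 for clock genes, against 0.828 and 0.584 over all members.

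The response of H1975 was then set against the mean response of A549 and H1299, which share no arrays with it. By limma's interaction contrast 1070 genes differed (6.05%), 456 with a higher and 614 with a lower value in H1975. The count was 2206 with the run as a block. SLC7A11 changed by -0.41 in A549 and -3.84 in H1299, and the H1975 response was higher than their mean by 4.13 ± 0.34 (adjusted p = 2.55e-09). PHGDH changed by 0.54 in A549 and -2.25 in H1299, a difference of 3.48 ± 0.34 (adjusted p = 5.37e-08). BMP4 changed by -0.19 in A549 and 0.32 in H1299, and H1975 was lower by 5.22 ± 0.36 (adjusted p = 7.99e-11). ARRB1, an adaptor that silences receptors, fell by 2.69 ± 0.23 (adjusted p = 3.95e-09) in H1975 and changed by 1.07 in A549 and 1.45 in H1299, a difference of 3.95 ± 0.29 (adjusted p = 3.27e-10) downward. CASTOR2, listed here among the restrainers of mTORC1, fell by 2.70 ± 0.21 (adjusted p = 3.13e-10) in H1975. It changed by 0.18 in A549 and 1.25 in H1299, and H1975 was lower by 3.41 ± 0.26 (adjusted p = 4.83e-10). CASTOR2 and CASTOR3P are nearly identical and may share probes.

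By list, 15 of 24 ATF4 genes had a higher response in H1975 and 1 a lower one, and 9 of 16 cytosolic synthetases had a higher one. The list medians of the change were 1.02 in H1975, 0.0044 in A549 and -0.545 in H1299 for ATF4 genes, and 0.703, 0.132 and -1.06 for synthetases. For the unfolded protein response the medians were 0.374, 1.27 and 0.408, and 7 of 44 genes had a lower response in H1975 and 1 a higher one. For origin licensing the medians were -0.795, -0.295 and -1.39, and 1 of 17 genes differed, lower in H1975. Fatty acid synthesis had medians of -0.196, 0.262 and 0.406, with 5 of 17 genes lower in H1975.

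**Figure D5:**
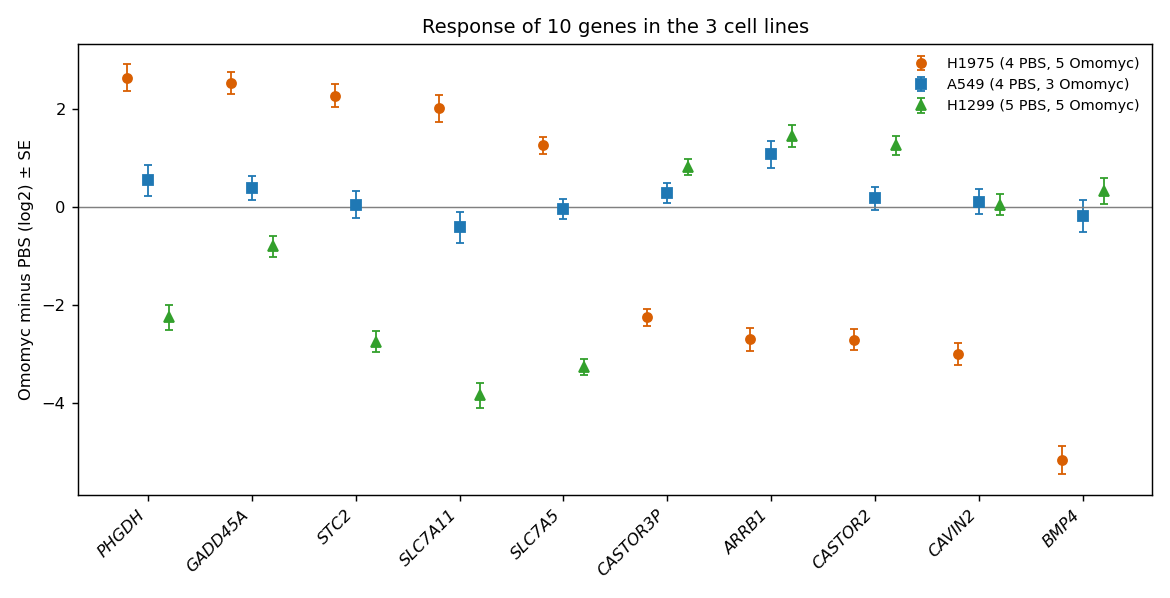
Response (Omomyc minus PBS, log2, with standard errors) of selected genes in H1975, A549 and H1299. SLC7A11, PHGDH and STC2 are above 0 in H1975 and below 0 in H1299, and BMP4 is at -5.15 in H1975, -0.19 in A549 and 0.32 in H1299.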

How the data were processed

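RNA of 26 biotin-labelled, single-colour arrays was measured, 9 of them from H1975. Values were deposited as log2 signals; the submitters' processing notes name RMA and Partek but give no version. RMA corrects background, quantile-normalizes and summarises probes. The number of arrays limits the precision, and no source used here names a genome build. Of 24351 features 17709 had 1 symbol, 6642 had none listed and 0 had several. Where several probe sets covered a gene (20 genes) the brightest was used, leaving 17687 genes.

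A linear model with a mean for each line and treatment was fitted to all 26 arrays in limma 3.58.1 (R 4.3.3, with statmod 1.5.0), followed by eBayes and no block (20 residual degrees of freedom), with Benjamini-Hochberg adjustment. Runs were 3 clusters of the sorted values of whole arrays (average linkage). The fit was tested on simulated data. Named genes were, among called genes, the 15 bright and 8 one-sided with the largest change each way, up to 3 bright or one-sided members of each list each way by p (or 2 where none was called), 10 by the difference between lines, and a fixed set including MYC, EGFR and ATF4. The members and gene lists were chosen with earlier results of these data known. Alternatives were the run or the replicate number as a block, quantile normalization, median centring, dim genes left out, H1975 alone, trend and robust settings, array weights, the mean of probe sets, each run alone, stricter thresholds, a second ceiling and leaving out each array.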

Additional observations from a re-analysis of the deposited data

Results flagged for a closer look

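Of 638 sets of array values of 1 group in H1975 (named genes and list means), 22 had 1 array far from the others of its group. This is a smaller share than the 1 in 20 or so that chance gives, so the values below are listed as a record only. ABCA3 was at 9.086 on PBS 4 against 9.896 to 10.04 on the others. ABCA3 was at 7.934 on Omomyc 3 against 8.546 to 8.776 on the others. BHLHE40 was at 14.2 on Omomyc 3 against 14.89 to 15.13 on the others. CASTOR1 was at 7.909 on PBS 1 against 6.037 to 6.281 on the others. COL5A1 was at 10.55 on PBS 3 against 10.06 to 10.1 on the others. DNAJB9 was at 9.1 on PBS 3 against 9.351 to 9.393 on the others. GNL2 was at 10.15 on Omomyc 5 against 10.54 to 10.64 on the others. MET was at 14.15 on Omomyc 2 against 13.58 to 13.68 on the others. MNT was at 9.742 on Omomyc 3 against 10.45 to 10.61 on the others. MSMO1 was at 14.44 on PBS 1 against 14.03 to 14.08 on the others. NDRG1 was at 13.15 on Omomyc 3 against 12.32 to 12.5 on the others. NFIL3 was at 11.21 on Omomyc 5 against 12.04 to 12.22 on the others. SAT1 was at 12.12 on Omomyc 5 against 12.62 to 12.72 on the others. SLC2A3 was at 13.64 on Omomyc 3 against 14.29 to 14.46 on the others. TNFAIP3 was at 9.532 on PBS 4 against 10.02 to 10.1 on the others. UHRF1 was at 10.95 on PBS 4 against 11.47 to 11.51 on the others. ZNF554 was at 7.905 on Omomyc 3 against 9.794 to 10.41 on the others. Omomyc 5 was the low array in 5 list means. The mean of the list ATF4 and integrated stress response was 9.275 there against 9.682 to 9.813. The mean of the list Unfolded protein response of the ER was 11.32 there against 11.65 to 11.77. The mean of the list Cholesterol synthesis and SREBP was 10.03 there against 10.43 to 10.59. The mean of the list Fatty acid synthesis was 9.255 there against 9.518 to 9.602. The mean of the list Integrins and laminins was 6.689 there against 6.968 to 7.078.

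Of the 1070 genes whose response differed between H1975 and the mean of A549 and H1299, the 10 bright ones with the smallest p are given, as H1975 minus the others on the log2 scale. BMP4 differed by -5.22 (adjusted p = 7.99e-11) and ARRB1 differed by -3.95 (adjusted p = 3.27e-10). SLC7A5 differed by 2.90 (adjusted p = 3.27e-10) and CASTOR2 differed by -3.41 (adjusted p = 4.83e-10). CASTOR3P differed by -2.80 (adjusted p = 5.4e-10) and STC2 differed by 3.61 (adjusted p = 1.76e-09). SLC7A11 differed by 4.13 (adjusted p = 2.55e-09) and CAVIN2 differed by -3.07 (adjusted p = 2.65e-08). PHGDH differed by 3.48 (adjusted p = 5.37e-08) and GADD45A differed by 2.73 (adjusted p = 8.7e-08).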

How the results depend on the processing

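The 2095 genes called became 3400 with the run as a block, 1018, 1047 and 780 in runs 1, 2 and 3 alone, 1194 at an adjusted p under 0.01 and 1244 with a 2-fold change. Leaving out 1 array gave 1627 to 2112. The 1070 genes that differed between lines became 2206 with the run as a block and 1655 after quantile normalization, and 837 to 1114 without 1 array. Median centring gave 2585 calls, 60.2% of them higher against 47.0% as deposited, and moved the median change of all genes to 0.115. Other settings kept both counts within 1.5 times. The deviations of same-numbered arrays of H1975 from their group means had r of 0.331, -0.151, 0.0308 and -0.196 for numbers 1 to 4. The arrays of numbers 2 and 4 lay in different runs, so these values cannot decide whether the numbers pair the arrays. The replicate block gave 2585 calls (57.0% higher) and 1436 differences. Of 239 called named genes 52 lost the call without some 1 array and 38 under another setting of all arrays. In 1 run alone the direction of EIF4EBP1 (-0.165, run 1) and HRK (-0.29, run 3) turned, and the cause was not tested. Of 1365 list medians compared 59 moved by more than the spread between replicates. The histone median changed sign with centring and without PBS 1 or Omomyc 2. Detection calls were not used here. Changes of one-sided genes are bounded by the background probe sets, and fold changes of dim genes are not given.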

Other observations

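Gene families taken by symbol were counted as well. Of 492 C2H2 zinc finger genes 27 rose and 28 fell, and of 363 solute carriers 25 rose and 26 fell, with medians of -0.0088 and 0.0107. These shares of 11.2% and 14% lie beside 11.8% over all genes. Tetraspanins, which organise membrane proteins, gave 1 rise and 5 falls among 22 genes (median -0.203), and aldo-keto reductases gave 0 rises and 4 falls among 11. Cytochrome P450 genes gave 0 rises and 6 falls among 51, which is 11.8%. S100 calcium-binding proteins gave 0 rises and 3 falls among 21. Mitochondrial ribosomal proteins gave 3 rises and 1 fall among 74, and 28 MAGE, 26 beta-defensin and 15 mucin genes gave no call in limma (1, 0 and 0 at an unadjusted p under 0.05).

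Of 15 genes of polyamine and methionine metabolism 2 rose and 2 fell (median 0.0159). SAT1, which acetylates polyamines for export, rose by 1.79 and SMOX, which oxidises spermine, rose by 1.34, while MAT2A, a methionine-cycle enzyme, fell by 1.28 and AMD1, which starts spermidine synthesis, fell by 1.10 on the log2 scale.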
